A study of Mastomys natalensis with 3 samples.

Results

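Gene expression in the stomach of Mastomys natalensis after 16 weeks of loxtidine was compared with that after 8 weeks, using every probe set whose name did not mark it as an array control. That left 8740 of 8799 probe sets, read on 2 of the 3 arrays of the series. Mastomys is an African rodent prone to gastric carcinoids, and loxtidine blocks the histamine H2 receptor through which acid secretion is driven. Both samples were total RNA of a population enriched for enterochromaffin-like (ECL) cells and taken from the gastric mucosa, hybridised to an Affymetrix rat U34 array. The remaining array held cells of the same kind from Mastomys with a carcinoid of ECL cells that had arisen without the drug, and its values are given only beside those of loxtidine. No untreated sample was analysed here. How many animals each array stands for is not stated in the labels. Each duration had 1 array, so the values below describe these arrays and carry no replicate error or test. The labels named ECL cells as the source at 8 weeks and gastric mucosa at 16 weeks, and each array had a lot of its own, so duration, lot and source cannot be told apart.

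ECL cells sit in the acid-secreting mucosa, store histamine in secretory granules, and release it when gastrin from the antrum binds their cholecystokinin B receptor. The histamine acts on the H2 receptor of parietal cells, which secrete acid through the gastric proton pump. When acid is blocked for long, the brake that acid places on gastrin release is lifted, gastrin in the blood rises, and ECL cells can multiply.

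Control probe sets placed along the GAPDH and beta-actin transcripts were dim toward the 5' end on the 8-week array. Deposited intensities at the 5' end, the middle and the 3' end of GAPDH were 37.3, 124 and 334 at 8 weeks and 364, 533 and 520 at 16 weeks. The 16-week value was thus 9.75-fold higher at the 5' end, 4.29-fold higher in the middle and 1.56-fold higher at the 3' end. For beta-actin the same positions read 47.8, 315 and 767 at 8 weeks and 219, 1135 and 1467 at 16 weeks, or 4.57-fold, 3.61-fold and 1.91-fold higher. Both transcripts showed the same order, with the gap between arrays widest at the 5' end and narrowest at the 3' end. The bacterial transcripts used as hybridisation controls did not share it, since their deposited 16-week values were 0.707 to 1.07 times those at 8 weeks. After the quantile normalization used below, each of these bacterial controls read lower at 16 weeks. The 3' end of BioB went from 261 to 112, the 5' end of BioC from 774 to 424 and the 3' end of BioDn from 2846 to 2036. A gene that is lower by such an amount after normalization is not set apart from these controls. Normalized GAPDH still read higher at 16 weeks at the 5' end (48.15 against 340.5) and in the middle (180 against 508), but not at the 3' end (492 on both). Normalized beta-actin read 63.6 against 200, 459 against 1059 and 1302 against 1248 at the same positions. A gene that is higher by such amounts is likewise not set apart from the rat controls. Where on its transcript each other probe set lies was not analysed here. A lower 8-week value of a gene can therefore not be told apart from a probe set far from the 3' end, and the part of this in each result was not tested. Expressed sequence tags (ESTs) are often read from the 3' end, so probe sets built on them were also summarised alone.

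**Figure D1:**
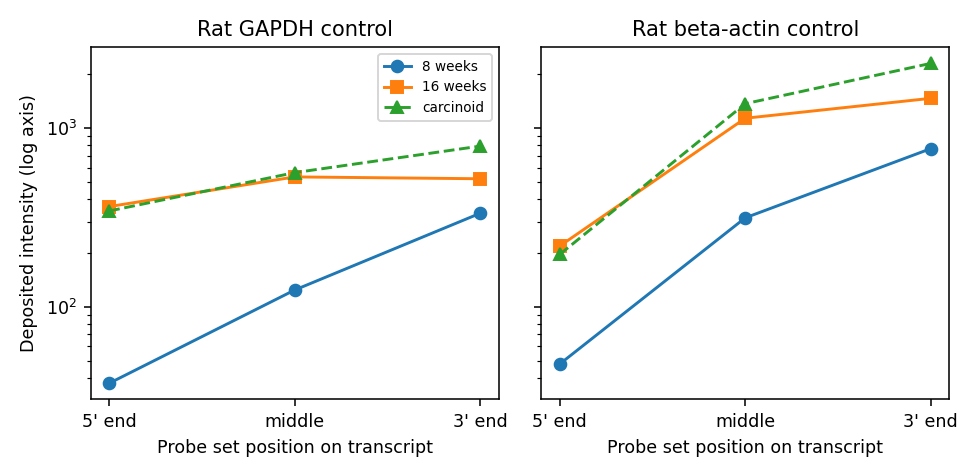
Deposited intensity (log axis) of control probe sets at the 5' end, middle and 3' end of rat GAPDH and beta-actin, 1 point per array. At 8 weeks GAPDH climbs from 37.3 to 334 along the transcript, while at 16 weeks it lies between 364 and 533.

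Intensities are given after quantile normalization of the 3 arrays, and a floor was set at 12.4, the median of all normalized values. A difference was measured where both arrays reached the floor, was a bound ("at least") where 1 array did, and was not given where neither did. Of the 8740 probe sets, 3164 were measured on both arrays, 2422 gave a bound and 3154 lay below the floor on both. Among those measured, 343 read higher by 2-fold or more at 16 weeks (10.8%) and 312 read lower by as much (9.86%). At 4-fold the counts were 43 higher (1.36%) and 39 lower (1.23%). Bounds added 432 probe sets at least 2-fold higher and 412 at least 2-fold lower. In the values as deposited the 16-week array was brighter, with a median log2 difference of 0.45 over the probe sets that reached the floor on at least 1 of these arrays, and changes below are relative to that shift. The share of 2-fold differences that were higher at 16 weeks was 52.4% with quantile normalization, 62.7% with median scaling and 83.1% as deposited. The largest measured difference, 5892 against 139 or 42.3-fold higher at 16 weeks, came from a probe set that the annotation assigns to several genes and that is therefore not named.

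**Figure D2:**
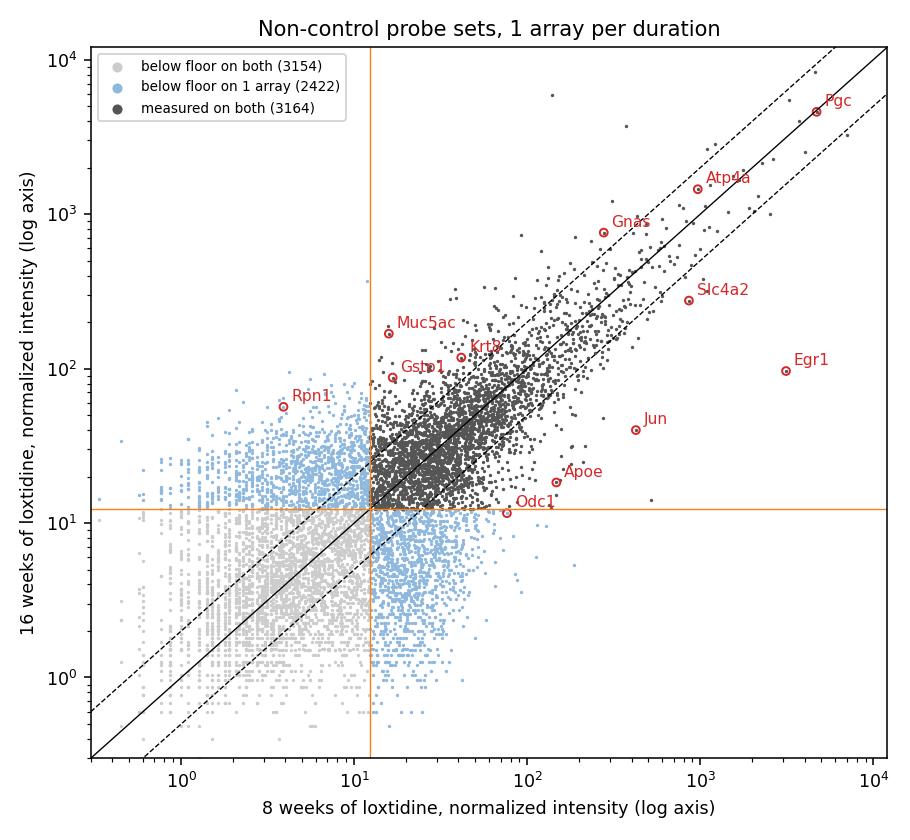
Normalized intensity of each non-control probe set at 8 weeks (x, log axis) and 16 weeks (y, log axis), 1 array each. Dashed lines mark 2-fold, orange lines the floor of 12.4, and 12 genes named in the text are circled. Most of the 3164 probe sets measured on both arrays lie between the dashed lines, and Egr1 lies farthest below them among the circled genes.

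Genes took the value of their brightest probe set. Of 4736 genes with a probe set of their own, 3345 reached the floor on at least 1 of these arrays, and 467 of them read higher by 2-fold or more at 16 weeks (14.0%) and 430 lower (12.9%), bounds included. These shares are the background for every gene group below. As deposited, the median over all genes lay at 0.47 on the log2 scale, and of the 23 gene groups with more genes lower than higher after normalization, 13 had more higher than lower as deposited and 2 had equal counts. How far a single probe set can be trusted was read from genes with probe sets made from different source sequences. Of 75 genes whose brightest probe set was at least 2-fold higher at 16 weeks, the second was also at least 2-fold higher in 19 (25.3%), against 15.7% over all 581 such genes, and at least 2-fold lower in 11. Of 97 genes whose brightest probe set was at least 2-fold lower, the second followed in 22 (22.7%, against 14.5%) and was at least 2-fold higher in 12. Over the 259 genes with both measured, the spread between probe sets of a gene was 0.81 on the log2 scale, nearly that of all probe sets between the arrays (0.85). Pairs made from 1 source sequence lay nearly as far apart, with a spread of 0.76 over 183 pairs and the same sign in 51.9%, against 51.7% for different sequences.

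**Figure D3:**
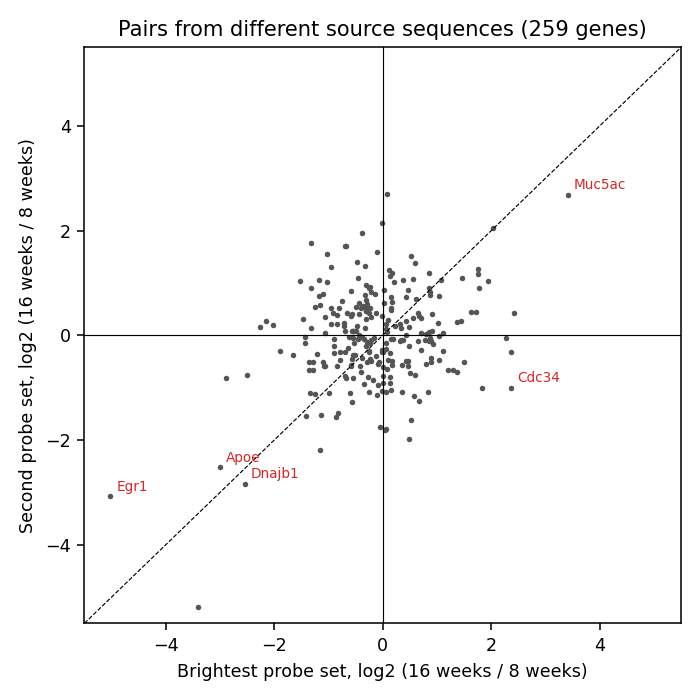
Log2 difference (16 weeks over 8 weeks) of the brightest (x) and second (y) probe set of 259 genes, made from different source sequences and both measured on both arrays. Egr1, Dnajb1, Apoe and Muc5ac lie far from the centre on both axes, whereas Cdc34 lies at 2.36 on x and -1.01 on y.

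Few genes moved at least 2-fold the same way on every probe set above the floor. Of the 581 genes, 9 did so upward (1.55%) and 16 downward (2.75%). Muc5ac, the main mucin of gastric surface mucous cells, led the first group, with 15.8 at 8 weeks, 168 at 16 weeks and 213 in the carcinoid, or 10.6-fold higher at 16 weeks, and 6.39-fold on its second probe set. Next came Gstp1, a glutathione transferase (27.1 against 100 at 16 weeks, 3.69-fold, and 3.87-fold on the second probe set), and the splicing factor Srsf5 (61.8 against 194, 3.13-fold, and 4.37-fold). Chka, which begins phosphatidylcholine synthesis, read 44.7 at 8 weeks and 201 at 16 weeks, 4.49-fold higher, and its second probe set was at least 3.08-fold higher. The rest were Atp5if1, Gstm2, Bad, the cargo receptor Tmed2 and the ubiquitin ligase Huwe1, with smallest differences of 2.06-fold to 2.58-fold. Among the 16 lower genes, the chaperone partner Dnajb1 went from 182 to 31.3, 5.81-fold lower at 16 weeks, and 7.15-fold on the second probe set. The lipid carrier Apoe went from 147 to 18.3, 8.04-fold lower, and 5.75-fold on the second. Crp, an acute phase protein of liver, had 3 probe sets, all at least 2.45-fold lower. The others were Nppa, Bcl2l11, Gng7, the glucocorticoid receptor Nr3c1, Muc13, Ddr1, Sipa1l1, Ptpn11, Cox6b1, Otc, the muscarinic receptor Chrm1, Kcnj4 and Alpl.

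Several markers of the gastric glands read above the floor on both arrays, and those of ECL cells did so only in part. The array is for rat, and the match of its probe sets to Mastomys was not analysed here. The floor is the median of all normalized values, so a value below it does not show that a transcript was absent. Hdc, the enzyme that makes histamine, lay below the floor on both arrays (4.43 and 4.77). Slc18a2, which loads histamine into granules, read 21.8 at 8 weeks, 42.3 at 16 weeks and 23.2 in the carcinoid, 1.94-fold higher at 16 weeks. The granule protein Chgb read 37.6 and 35.4, a difference of 1.06-fold. Cckbr, the gastrin receptor, read 74.3 and 56.5 on its brightest probe set, 1.31-fold lower at 16 weeks, while a second probe set went from below the floor to 33.4, at least 2.69-fold higher. These values give no common direction for the ECL cell. Markers of chief cells were bright, with Pgc, the pepsinogen C precursor of a gastric protease, at 4695 and 4589, and Cblif, the intrinsic factor, at 452 and 512. A second Cblif probe set gave a bound of 2.57 upward on the log2 scale. For these bulk samples, fewer cells of a type and less RNA per cell cannot be told apart.

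Of 16 genes of secretory granules and neuroendocrine cells above the floor, 2 reached 2-fold higher at 16 weeks and 1 lower, with a median log2 difference of 0.58 that was 0.08 to 0.66 above the median of all genes over the other settings. The higher ones were Cadps, which primes granules for release (13.7 against 33.2, 2.43-fold), and Th, the tyrosine hydroxylase of catecholamine synthesis (13.7 against 28.3, 2.07-fold). The lower one was the prohormone convertase Pcsk2, from 33.0 to below the floor (at least 2.66-fold), whose second probe set had a bound of 0.32 upward on the log2 scale. Scg2 (below the floor against 20.2), Cpe (13.1 against 22.8) and Pam (150 against 212) were brighter at 16 weeks by less than 2-fold, and the other Pam probe sets pointed both ways.

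Receptors and ligands that set acid secretion contained no gene that reached 2-fold higher at 16 weeks and 5 of 19 lower (26.3%, against 12.9% of all genes). As deposited the counts were 2 and 3 and the median was 0.15, which turns the sign of the median of -0.39 until the shift of all genes is taken off. Relative to all genes the median lay 0.02 to 0.39 below over the other settings. The muscarinic receptor Chrm1 read 47.5 at 8 weeks, 11.7 at 16 weeks and 13.0 in the carcinoid, at least 3.83-fold lower, and its second probe set gave at least 2.03-fold. Chrm5, of the same family, read 78.4, 29.0 and 10.4, which was 2.70-fold lower at 16 weeks. The remaining lower genes were the incretin Gip (35.8 against below the floor, at least 2.89-fold), Gast, which encodes gastrin (32.2 against 8.77, at least 2.60-fold), and the receptor for vasoactive intestinal peptide Vipr1 (38.6 against 18.4, 2.10-fold). Gast is made mainly in the antrum, and its 8-week value was itself only 2.60 times the floor. The target of the drug, Hrh2, lay just above the floor, at 13.1 and 15.8. Sst, the somatostatin of D cells, read 159 and 200, and its second probe set differed by 0.21 on the log2 scale. The muscarinic receptor Chrm3, which serves parietal and chief cells, read 37.5 and 58.8, 1.57-fold higher at 16 weeks.

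Among peptide hormones of the gut, 4 of 15 reached 2-fold lower at 16 weeks (26.7%) and 1 higher (6.67%), against 2 higher and 3 lower as deposited. Penk, a precursor of enkephalins, was at least 2.74-fold lower and the vasodilator peptide Adm at least 2.31-fold lower. Tac1, the precursor of substance P, went the other way, from 6.70 at 8 weeks to 92.2 at 16 weeks and 30.1 in the carcinoid, at least 7.44-fold higher, but its second probe set lay below the floor on both arrays.

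Of 10 parietal cell genes, 2 were at least 2-fold higher and 3 lower, against 4 of 9 higher and 0 lower as deposited. Atp4a, the catalytic subunit of the proton pump, read 966 at 8 weeks, 1449 at 16 weeks and 903 in the carcinoid. That was 1.50-fold higher at 16 weeks on its brightest probe set. The 2 other Atp4a probe sets gave bounds of 2.94 and 1.28 upward on the log2 scale. The partner of Atp4a, Atp4b, read 240, 143 and 117, 1.68-fold lower, and a second Atp4b probe set differed by 0.66 in the other direction on the log2 scale. On the brightest probe sets of Atp4a and Atp4b the differences, 0.58 and -0.75 on the log2 scale, were smaller than the spread between probe sets of a gene. Slc4a2, the exchanger that returns bicarbonate to blood, read 859 and 275 on its brightest probe set, 3.12-fold lower, while its second differed by -0.05. Ckb, the creatine kinase that is abundant in parietal cells, was 2.17-fold lower (508 against 234), with -0.72 on the second probe set. Tgfa, a growth factor that parietal cells make, went from below the floor to 31.3 (at least 2.52-fold higher), and Ezr, which builds their apical membrane, to 27.5 (at least 2.22-fold).

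Mucous cell genes other than Muc5ac gave a mixed picture. Tff2, the trefoil peptide of mucous neck cells, read 44.8 at 8 weeks, 19.3 at 16 weeks and 65.6 in the carcinoid, 2.33-fold lower at 16 weeks. Tff1, made by surface mucous cells together with Muc5ac, read 1124 and 831, 1.35-fold lower, and Tff3 read 62.7 and 60.0. The Muc5ac difference was thus not accompanied by Tff1. In the keratins of simple epithelium, Krt8 read 41.5 and 118, 2.84-fold higher, and its partner Krt18 read 64.1 and 110, 1.72-fold higher, with a second probe set at least 6.31-fold higher. Krt4, a keratin of stratified epithelium such as the forestomach, read 86.7 and 13.8, 6.30-fold lower.

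Genes for protein folding and the early secretory pathway were the group with most members higher at 16 weeks for its size apart from ubiquitin conjugation. Of 27 genes above the floor, 10 were at least 2-fold higher (37.0%, against 14.0% of all genes) and 1 lower (3.70%). As deposited the counts were 14 and 0. The median was 0.69, which lay 0.58 to 0.95 above the median of all genes over 7 other settings, and 0.68 above it over 11 genes read by EST probe sets alone. The steps of the pathway are given in turn, a division made after the values were seen. Several subunits of the oligosaccharyltransferase, which adds sugar chains to proteins entering the endoplasmic reticulum, were higher at 16 weeks. Rpn2 read 42.2 at 8 weeks, 144 at 16 weeks and 99.7 in the carcinoid (3.42-fold). Rpn1 read 3.90, 56.5 and 31.3 (at least 4.56-fold), and Magt1 read 10.0, 80.1 and 42.2 (at least 6.46-fold). Dad1, of the same complex, differed by 0.87 on the log2 scale on its brightest probe set and by -0.04 on its second. Ddost, also on the list, lay below the floor on both arrays.

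Members of the protein-conducting channel and of the vesicle coat also read brighter at 16 weeks. Sec61a1, the channel itself, read 84.2 and 165 (1.96-fold), Sec61b 46.3 and 74.8 (1.62-fold), and Serp1, which stabilises membrane proteins at the channel, 40.3 and 85.2 (2.11-fold). For the COPI coat, which returns vesicles from the Golgi, Copb2 read 8.67 and 53.8 (at least 4.34-fold) and Copb1 6.40 and 28.8 (at least 2.32-fold). Arf1, the GTPase that recruits this coat, read 59.2, 194 and 179 (3.27-fold higher at 16 weeks). Tmed2, a partner of the coat, was 2.09-fold and at least 2.82-fold higher on its 2 probe sets. The disulfide isomerases Pdia2 (60.5 against 178, 2.94-fold) and Pdia6 (143 against 296, 2.08-fold) were also higher.

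Some other folding proteins of the same compartment, grouped after their values were seen, read lower or close at 16 weeks on their brightest probe sets. Hspa5, the chaperone BiP, read 337 at 8 weeks, 169 at 16 weeks and 150 in the carcinoid, 2-fold lower. Hsp90b1 read 201 and 112 (1.79-fold lower), and both of its other probe sets were lower. Pdia4 read 46.3 and 23.2 (1.99-fold lower). Calr read 243 and 225, and its other probe sets were higher by 0.41 and 1.60. Canx read 880 and 470 on its brightest probe set (1.87-fold lower), while another was 2.40-fold higher. As deposited, Hspa5 read 223 and 185.

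**Figure D4:**
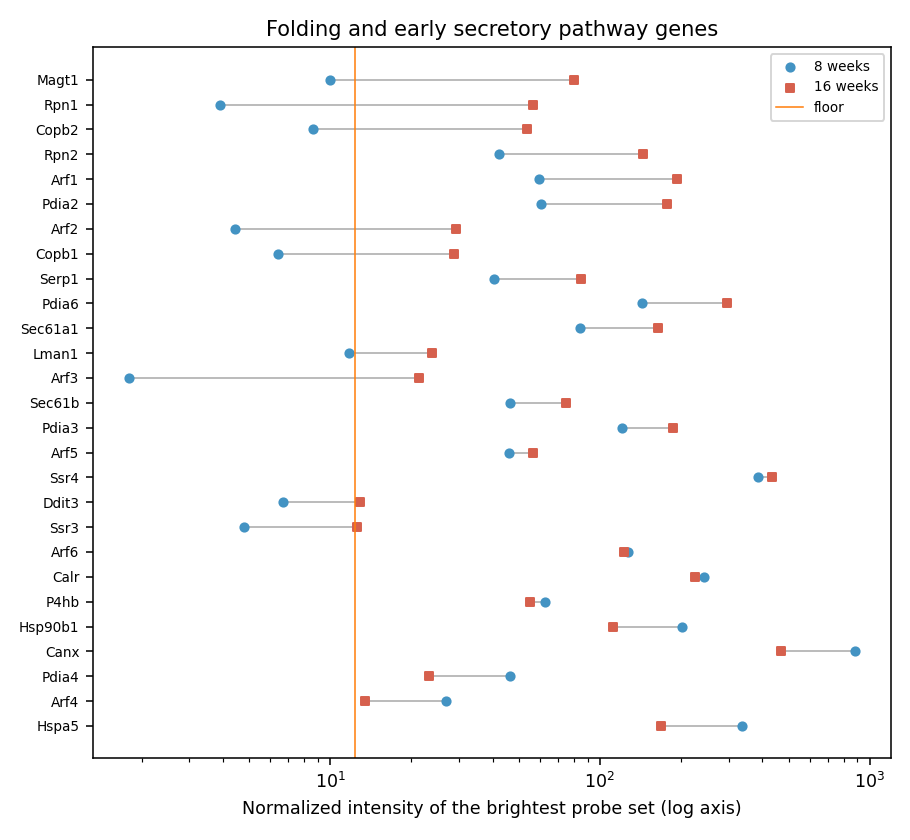
Normalized intensity (log axis) of the brightest probe set of 27 genes for protein folding and the early secretory pathway at 8 weeks (circles) and 16 weeks (squares), 1 array each, ordered by difference. Magt1, Rpn1 and Copb2 at the top start below the floor of 12.4 at 8 weeks, and Hspa5 at the bottom goes from 337 to 169.

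Of 18 genes above the floor that attach ubiquitin to proteins, 8 reached 2-fold higher at 16 weeks (44.4%) and 0 lower, where 12.9% of all genes were lower. The other 10 lay between these limits, the lowest of them at -0.80 on the log2 scale. The median was 0.62, or 0.46 to 1.03 above that of all genes over the other settings, and 0.36 above it over 13 genes read by EST probe sets, of which 6 were at least 2-fold higher and 1 lower. The ligase Rnf130 read 8.67 at 8 weeks, 79.9 at 16 weeks and 67.4 in the carcinoid, at least 6.44-fold higher. Cul2, a scaffold of ligase complexes, read 12.4, 60.0 and 55.9 (4.84-fold), and the ligase Ube3a read 10.5, 47.8 and 43.5 (at least 3.85-fold). Nedd4 (38.0 against 81.1, 2.13-fold) and the conjugating enzyme Ube2a (66.7 against 139, 2.09-fold) were measured on both arrays. The conjugating enzyme Cdc34 read 25.7 and 132 on its brightest probe set, 5.15-fold higher, but its others read -1.01 and -0.53 on the log2 scale.

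Proteasome subunits were less uniform, with 6 of 23 at least 2-fold higher (26.1%) and 1 lower (4.35%), and a median of 0.36. Over 9 genes read by EST probe sets the median lay 0.07 above that of all genes. In the core, Psmb4 read 65.1 and 334 (5.14-fold higher), though its other probe sets gave 1.06 and -0.31, and Psmb1 was at least 2.73-fold higher. In the regulatory cap, Psmc1 was at least 3.31-fold higher, Psmc4 2.42-fold (27.1 against 65.8) and Psmd11 2.41-fold (42.5 against 103). Psme1, a subunit of the interferon-inducible activator, was 2.71-fold lower (274 against 101), with 0.39 on another probe set.

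Of 31 factors that bind and splice RNA, 8 reached 2-fold higher at 16 weeks (25.8%), 1 reached 2-fold lower (3.23%) and 22 neither. The median was 0.37, and it lay 0.28 to 0.65 above that of all genes over the other settings and 0.62 above it over 20 genes read by EST probe sets. Rbm39 read 24.5 at 8 weeks, 131 at 16 weeks and 98.3 in the carcinoid (5.36-fold), with 0.44 on another probe set. Hnrnpab read 31.7, 149 and 120 (4.71-fold), and the export helicase Ddx39b read 26.0, 107 and 156 (4.11-fold), the same on its second probe set (2.04 on the log2 scale for each). Khdrbs1 was 3.88-fold higher (13.1 against 50.9). Rbm24, a splicing factor of muscle, was the lower gene (65.9 against 14.3, 4.61-fold), and read 66.8 in the carcinoid.

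Translation factors and ribosomal proteins had medians above that of all genes, by less over EST probe sets. Of 22 translation factors 5 were at least 2-fold higher and 2 lower, and of 38 cytosolic ribosomal proteins 6 were higher (15.8%) and 2 lower (5.26%). Their medians of 0.37 and 0.33 shrank to 0.02 and 0.03 above all genes over 13 and 16 genes read by EST probe sets. The guanine exchange factor subunit Eif2b4 was 4.35-fold higher (19.5 against 84.9). For Eif2b3, of the same complex, the brightest probe set went from 56.2 to 12.7 (4.42-fold lower). The other Eif2b3 probe sets gave 0.28 and a bound of -0.53 on the log2 scale, so its direction was not settled. Among ribosomal proteins, Rpl11 was higher on both probe sets (1.12 and 1.99), whereas Rpl6 gave -1.03 and 1.56.

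Cells switch on immediate early transcription factors and feedback regulators within minutes of stimulation. None of 17 immediate early factors was at least 2-fold higher, 5 were lower (29.4%) and 12 neither, and of 17 feedback regulators 1 was higher, 5 were lower (29.4%) and 11 neither. As deposited the counts were 3 higher and 4 lower, and 1 higher and 3 lower. Egr1 read 3126 at 8 weeks, 96.4 at 16 weeks and 265 in the carcinoid (32.4-fold lower) on its brightest probe set, while its others gave -3.08 on the log2 scale, a value close to 2-fold lower, and a bound of 0.64 upward. Jun read 424, 40.0 and 69.3 (10.6-fold lower). The nuclear receptor Nr4a1 read 103, 28.9 and 83.7, 3.55-fold lower and more so on its second probe set (-2.20). Klf4, a differentiation factor of epithelium, read 594, 274 and 497, 2.17-fold lower, with -0.86 on its second. Fos read 117 and 58.8, 1.99-fold lower, with -1.10 and a bound of -0.74 on its others. Nr4a2 (40.2 against 72.7) and Arc (19.7 against 38.9) were higher by less than 2-fold. Over 7 genes with an EST probe set the immediate early median lay 0.08 below that of all genes, against 0.84 with every kind of probe set.

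The inhibitor of cytokine signalling Socs3 was the exception among the feedback regulators, at 16.0, 71.1 and 14.9, 4.44-fold higher at 16 weeks. Nfkbia (133 against 13.1) and Cebpb (137 against 12.5) lay near the floor at 16 weeks on their brightest probe sets, and their others lay below the floor on both arrays. In the heat shock group 4 of 17 genes were at least 2-fold lower and 2 higher, but 1 lower and 2 higher as deposited. The higher ones were Hspb2 (below the floor against 57.6, at least 4.65-fold) and Hspa9 (2.32-fold). Other probe sets of Hspb2 and Hspa9 lay below the floor on both arrays. Hspd1, the mitochondrial chaperonin, read 1030 and 381 (2.70-fold lower) but differed by -0.03 on its second probe set. Hspb1 was lower on all 4 probe sets, from -0.31 to -3.91 on the log2 scale. The cytosolic chaperone Hsp90ab1 read 616 and 619, with -0.90 on its second probe set.

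In growth factor signalling, 9 of 58 genes were at least 2-fold higher (15.5%) and 8 lower (13.8%), near the shares of all genes. Tgfa and its relative Hbegf, both ligands of the epidermal growth factor receptor, went opposite ways, at least 2.52-fold higher and at least 2.80-fold lower. The receptors Erbb2 (18.7 against 43.4, 2.32-fold higher) and Erbb3 (56.3 against 21.7, 2.60-fold lower) also split. Igf1 read 373 and 3724 on its brightest probe set, a 9.98-fold difference, and of its 4 other probe sets 1 lay below the floor on both arrays and 3 gave bounds of 1.75, 1.79 and -0.67, the last from the same source sequence as the brightest. Gnas, the G protein subunit that couples the H2 receptor to adenylate cyclase, read 276 at 8 weeks, 759 at 16 weeks and 545 in the carcinoid, 2.74-fold higher. Its other probe sets gave 1.10, 1.13 and -0.02 on the log2 scale. Grk2, which desensitises such receptors, was 4.16-fold higher (14.4 against 59.9), and the arrestin Arrb2 2.51-fold (12.8 against 32.1). The G protein group as a whole had 10 of 43 genes higher (23.3%) and 6 lower (14.0%).

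Cell division genes showed little common movement, with 4 of 29 at least 2-fold higher (13.8%) and 2 lower (6.90%) and a median of -0.19. Higher were Cdk4 (24.1 against 77.7, 3.22-fold), Cdk2 (at least 2.97-fold), the replication helicase subunit Mcm7 (26.0 against 67.2, 2.59-fold) and the polymerase subunit Pola2 (12.4 against 30.6, 2.47-fold). Lower were the cyclin of mitosis Ccnb1 (52.3 against 18.7, 2.80-fold) and the inhibitor Cdkn1a (48.0 against 16.3, 2.94-fold).

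Of 40 matrix and fibroblast genes 1 was at least 2-fold higher (2.50%), 9 were lower (22.5%) and 30 neither. The summed intensity of all 55 genes of this list, those below the floor included, was 2474 at 8 weeks, 1255 at 16 weeks and 1356 in the carcinoid. Without the proteoglycan Dcn it was 1384, 939 and 1093. As deposited 3 matrix and fibroblast genes were higher and 4 lower. The median of -0.50 lay 0.25 to 0.62 below that of all genes over the other settings, but only 0.12 below over 13 genes with EST probe sets, of which 1 was higher and 0 lower. Dcn, which binds collagen, read 1090, 317 and 262, 3.45-fold lower, and all 3 other probe sets were lower. The gelatinase Mmp2 and the matrix protein Tnc each went from 49.5 to below the floor, at least 3.99-fold lower. A second Mmp2 probe set went the other way, with a bound of 0.67 upward on the log2 scale. Among collagens, Col5a1 was 2.74-fold lower (52.0 against 19.0) and Col8a1 at least 3.57-fold lower. Timp1, an inhibitor of matrix proteases, was the higher gene (18.7 against 40.7, 2.17-fold).

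Of 42 integrins and adhesion genes, 5 were at least 2-fold higher (11.9%) and 10 lower (23.8%), against 7 and 6 of 39 as deposited. Lower were P-selectin, Selp (60.1 against 11.8, at least 4.84-fold), Icam1 (at least 3.05-fold) and Alcam (270 against 120, 2.26-fold), and the tetraspanin Cd9 was at least 5.68-fold higher, with 0.24 on its second probe set. Leukocyte and major histocompatibility class II genes had 2 of 32 higher (6.25%) and 7 lower (21.9%), against 3 and 2 as deposited. All 43 genes of this list, those below the floor included, had a summed intensity of 1384, 1060 and 1037. C1qb, a complement subunit of macrophages, read 92.0 and 3.57 (at least 7.42-fold lower), and Cd74, the class II invariant chain, 35.3 and 1.27 (at least 2.85-fold lower). The coreceptor chains Cd8a (at least 3.32-fold higher) and Cd8b (2.33-fold lower), which pair in the same T cells, went opposite ways. Of 10 mast cell genes 2 were at least 2-fold lower and 0 higher, against 2 each way as deposited. The lower ones were the chymases Cma1 (54.2 against 12.5, 4.33-fold) and Mcpt1l1 (146 against 43.2, 3.38-fold), while Kit lay below the floor on both arrays. The part of connective tissue and immune cells in the other differences was not tested.

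Remaining cell types gave smaller or mixed counts. Smooth muscle had 2 of 11 genes higher and 1 lower (summed intensity 565 and 473), against 2 and 0 as deposited. Neuron and glia genes had 1 of 38 higher and 4 lower (1238 and 1064), but 5 and 1 as deposited. Endothelium had 2 of 9 each way (237 and 199). Erythroid genes had 2 of 9 lower and 0 higher (446 and 322), and none either way as deposited. Genes of the exocrine pancreas had 3 of 21 higher and 6 lower (5 and 4 as deposited), while their summed intensity rose (6319 and 9858). Their median difference was 0.09 on the log2 scale, so the sum does not stand for the group. Which members carried its rise was not analysed. Among the higher genes was the amylase Amy2a3 (16.1 against 40.35, 2.50-fold), with the largest upward difference of the list. Among the lower were the lipase Pnlip (128 against 9.57, at least 10.3-fold lower) and the elastase Cela1 (56.6 against 16.4, 3.45-fold lower). Liver-secreted proteins had 4 of 31 each way, against 7 higher and 3 lower as deposited.

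Of 33 cytoskeletal genes, 9 were at least 2-fold higher (27.3%), 2 lower (6.06%) and 22 neither. Actg1, a cytoplasmic actin, read 152, 397 and 327 (2.61-fold higher at 16 weeks), Tmsb4x, which binds actin monomers, 429, 966 and 859 (2.25-fold), Pfn1 144, 304 and 470 (2.12-fold) and the tubulin Tubb5 129, 350 and 392 (2.72-fold). Actg1 belongs to the same family as the beta-actin control, which was dim at 8 weeks toward its 5' end.

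Ion pumps, aquaporins and carbonic anhydrases had 7 of 27 genes higher (25.9%) and 2 lower (7.41%), for example the water channel Aqp5 (at least 3.45-fold), the plasma membrane calcium pump Atp2b1 (15.4 against 48.5, 3.15-fold) and Car4 (28.8 against 63.9, 2.22-fold). Of 8 subunits above the floor of the vacuolar proton pump, which acidifies lysosomes and granules, 2 were at least 2-fold higher and none lower, namely Atp6v0a1 (13.0 against 55.3, 4.25-fold, and a bound of 1.66 on its second probe set) and Atp6v1f (24.4 against 81.0, 3.33-fold). The brightest subunit, Atp6v0c, read 290 and 164 (-0.82), and Atp6v1a read 33.4 and 28.3. Bicarbonate carriers split, since Slc4a4 (at least 2.95-fold), Slc4a7 (34.8 against 92.6, 2.66-fold) and Slc4a3 (2.29-fold) were higher while Slc4a2 was lower. Over all solute carriers, 10 of 86 were higher (11.6%) and 18 lower (20.9%), and as deposited 15 and 8. The lower ones included the glucose transporter Slc2a1 (203 against 70.3, 2.89-fold) and the mitochondrial citrate carrier Slc25a1 (80.4 against 17.4, 4.62-fold, and 80.4 in the carcinoid).

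Enzymes that detoxify foreign compounds had 13 of 74 genes higher (17.6%) and 11 lower (14.9%), and 21 and 5 as deposited. Of 14 glutathione transferases, a class split off after the values were seen, 5 were at least 2-fold higher, Gstp1, Gstm2, Gstk1 (15.7 against 56.2, but -1.04 on the log2 scale on an EST probe set), Gsto1 (16.7 against 87.5, 5.25-fold) and Mgst3 (150 against 373, 2.49-fold), and Gstm7 was lower (82.8 against 32.2, 2.57-fold). A second Gsto1 probe set had a bound of -0.23 on the log2 scale. Adh7, the alcohol dehydrogenase of gastric epithelium, went from below the floor to 57.9 (at least 4.67-fold higher) and read 32.4 in the carcinoid. Of 21 cytochrome P450 genes, 3 were higher and 4 lower, with Cyp2d3 at least 3.29-fold higher and Cyp2a3 at least 2.98-fold lower.

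Polyamine and one-carbon enzymes had 5 of 15 genes lower (33.3%) and 1 higher (6.67%), against 4 and 3 as deposited. Odc1, the first enzyme of polyamine synthesis, read 76.2, 11.6 and 10.9 (at least 6.15-fold lower at 16 weeks), and Oaz2, an antizyme that restrains it, 189, 49.8 and 80.1 (3.78-fold lower). Azin1, which counters antizyme, was 3.33-fold higher on 1 probe set and lower on another (a bound of -1.12). In sterol and fatty acid synthesis 4 of 13 genes were higher (30.8%), among them Acly (120 against 288, 2.40-fold) and Srebf1, a regulator of the pathway (at least 2.31-fold), and Lss was 2.56-fold lower (35.5 against 13.9). The other Acly probe sets gave bounds of -0.70 and 0.06 on the log2 scale. The respiratory chain had 9 of 57 genes higher (15.8%) and 5 lower (8.77%). Its members included Cox6b1, lower on both probe sets (2517 against 997, 2.53-fold), and Ndufa8, higher (31.3 against 97.5, 3.12-fold). Nuclear receptors had 2 of 22 genes higher and 5 lower, against 6 and 3 as deposited, with the vitamin D receptor Vdr (at least 5.13-fold) and the clock repressor Nr1d1 (at least 4.13-fold) among the lower.

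**Figure D5:**
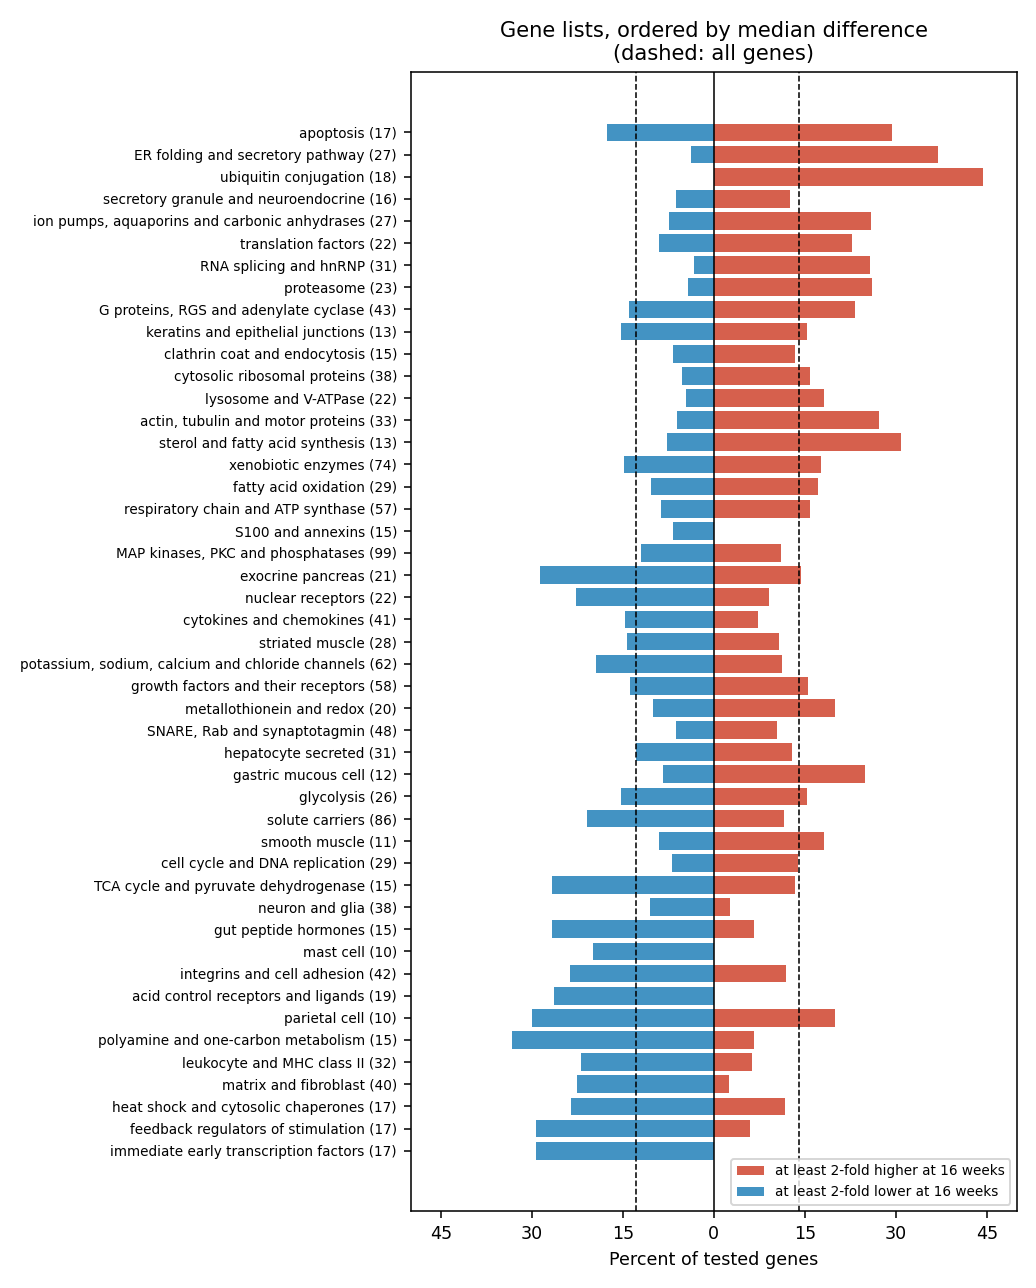
Percent of each group's genes above the floor that were at least 2-fold higher (red, right) or lower (blue, left) at 16 weeks, for groups with at least 10 such genes (number in brackets), ordered by median difference. Dashed lines mark the 14.0% and 12.9% of all genes. Ubiquitin conjugation reaches 44.4% to the right with none to the left, and immediate early factors 29.4% to the left with none to the right.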

How the data were processed

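The authors deposited a linear intensity for every probe set on each array. No label names the algorithm, background step or scaling behind it. Values were read with Python 3.11.15, numpy 2.4.6 and pandas 2.3.3, quantile normalized over 3 arrays, raised to the floor (the pooled median of non-control values, 12.4) and compared as log2 differences. No significance test was run, because each duration had 1 array, and the number of arrays limits the precision. Symbols came from the platform annotation. It gave 7006 probe sets 1 symbol, 308 several and 1426 none. A gene took its brightest probe set by mean over the arrays as deposited.

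Members and lists were chosen with earlier results of these data known. Genes were named by 5 criteria. These were all probe sets of different sequence at least 2-fold the same way, up to 15 genes each way. Then the 12 largest differences each way among genes at or above 30.0 on both arrays, up to 4 genes each way per list past 2-fold, a set of gastric genes named always, and other probe sets of a named gene. Not all are printed. Other genes named were picked from the lists after their values were seen. Alternatives were the values as deposited, median scaling, quantile normalization of the 2 arrays compared, floors at the 25th and 75th percentile, the floor added to each value before log2, 1 probe set per gene, the median over probe sets, and EST probe sets alone. Motif counts in promoters were planned and not run. The steps were tested on simulated data.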

Additional observations from a re-analysis of the deposited data

How the results depend on the processing

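At the 2-fold threshold 343 probe sets were higher and 312 lower at 16 weeks, and quantile normalization of only the 2 arrays compared gave 330 and 303. As deposited the counts were 595 and 121, with 83.1% higher, and median scaling gave 62.7% higher. The floor at the 25th percentile gave 1013 and 944, at the 75th percentile 120 and 104, and adding the floor before log2 with no filter 703 and 713. EST probe sets alone gave 124 and 113 and 1 probe set per gene 213 and 204, where fewer probe sets were tested. The cause of the shift under scaling was not tested. The median of 25 of 51 gene lists changed side of the all-gene median under at least 1 setting. Of the 5 such lists that lay at least 0.25 from it, the gut peptides went from -0.29 to 0.08 as deposited and 0.02 with median scaling. Keratins went from 0.35 to -0.06 with the lower floor and -0.02 with no filter, and polyamine enzymes from -0.41 to 0.08 with no filter. Over EST probe sets neuron and glia went from -0.29 to 0.25 (4 genes) and the clathrin coat from 0.33 to -0.01, the latter also to -0.02 with the higher floor. The secretory pathway, ubiquitin, splicing, immediate early, feedback and matrix lists kept their side under every setting that gave a value. The chief cell, parietal cell, gut peptide and circadian lists had no value from EST probe sets. Over EST probe sets alone the log2 difference turned to -1.12 for Azin1, -1.01 for Cdc34, 0.51 for Cox6a2, 1.65 for Dnaja1, -1.04 for Gstk1, -0.053 for Ppib, -1.03 for Psma1, -0.31 for Psmb4 and -0.66 for Rpl21. With the median over a gene's probe sets it turned to 0.78 for Bcl2l1, -0.21 for Bdnf, -0.53 for Cdc34, 0.20 for Dnaja1, -0.42 for Ndufa4l2, -0.096 for Nos3 and 0.26 for Rpl6. No paired analysis was possible because each group had 1 array. The promoter motif setting was not run, since no promoter sequence was used here. At the main floor 3154 of 8740 probe sets lay below it on both arrays and gave no difference. That number depends on the percentile at which the floor was set.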

Other observations

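Proteins that move vesicles toward fusion included some of the larger differences outside the groups described above. Napa, which helps take apart used fusion complexes, read 13.7 at 8 weeks and 60.9 at 16 weeks, 4.46-fold higher, though its second probe set had a bound of -1.60. Gdi2, which recycles Rab proteins, read 14.9 and 57.4, 3.84-fold higher. Rab3c, a Rab of secretory vesicles, went from 44.1 to below the floor, at least 3.56-fold lower. The group as a whole had 5 of 48 genes at least 2-fold higher (10.4%) and 3 lower (6.25%), and its median of -0.01 was close to that of all genes.

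Of 7 peroxins, which build peroxisomes, 5 lay above the floor and 2 of these were at least 2-fold higher at 16 weeks, a family picked after the values were seen. Pex6 read 13.9 and 77.9, 5.62-fold higher, with a bound of 1.46 on its second probe set, and Pex5 went from below the floor to 53.6, at least 4.33-fold higher. Pex14 read 61.8 and 118, Pex11a 19.4 and 27.4, and Pex2 41.1 and 51.2. Gata6, a transcription factor of gastric epithelium, read 85.1 at 8 weeks, 387 at 16 weeks and 340 in the carcinoid, 4.55-fold higher, and its other probe sets lay below the floor on both loxtidine arrays.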
